A study of Mus musculus with 18 samples.

Results

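The 8 genes described here encode the mouse liver X receptors (LXR, genes Nr1h2 and Nr1h3), the retinoid X receptors (RXR, genes Rxra, Rxrb and Rxrg) and the retinoic acid receptors (RAR, genes Rara, Rarb and Rarg). They were taken by name, as the rows with these 8 symbols out of 23420 gene rows in each count table. The set was chosen with earlier results of these data known. All 8 passed the filter on low counts that left 17166 genes for testing. RNA was sequenced from embryonic stem (ES) cells of the mouse line E14, of wild type genotype, which were grown without feeder cells in medium with leukaemia inhibitory factor, and from neural cultures derived from them, in 18 libraries that fell into 9 groups of 2. Undifferentiated ES cells received 1 µM GW3965, an LXR agonist, or 1 µM LG268, an RXR agonist, or both together, for 24 h, and a control group served for these ligands, with dimethylsulfoxide named as the vehicle. The differentiated groups were cultures of days 16 and 17 with GW3965, and of days 8, 16 and 17 with neither agonist. All differentiated cultures had been induced as embryoid bodies with 5 µM all-trans retinoic acid, itself the ligand of the RARs, and replated in N2 medium. The labels gave no length of GW3965 treatment in the differentiated cultures. By the names of their files, the day 16 group would have had it since day 8 and the day 17 group during the last 24 h. The file names of the group labelled with both ligands read as a control, and the group was used as labelled. All groups derive from 1 cell line, and the labels did not say whether the 2 libraries of a group came from separate cultures. The p-values below therefore measure only the spread between these libraries, which may be technical.

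LXR, RXR and RAR are nuclear receptors, transcription factors that bind DNA and change activity when a small lipid-soluble ligand occupies them. LXRs sense oxysterols and RARs sense retinoic acid, and both bind DNA as pairs with an RXR, so that the RXRs are shared partners of many receptor pathways. Without ligand such pairs hold corepressors, and with ligand they recruit coactivators. Retinoic acid is a classical inducer of neural fate in ES cells, LXR agonists raise cholesterol efflux and lipid synthesis genes, and Rarb is a textbook direct target of the RARs themselves.

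Reads counted in genes numbered 16.75 to 44.79 M per library (median 23.52 M). All samples carried the source label of ES cells. The 6 ES cell markers examined (Pou5f1, Nanog, Sox2, Zfp42, Esrrb and Klf4) summed to 110.8 to 238.8 CPM (counts scaled to the library's effective total) in the differentiated groups, against 1552 to 1823 CPM in the undifferentiated ones. The 6 neuronal markers (Tubb3, Map2, Rbfox3, Stmn2, Snap25 and Syt1) summed to 951.3 to 2258 CPM in the differentiated groups, against 380.4 to 482.5 CPM in the undifferentiated ones. In the 4 day 17 libraries 31.84 to 33.53% of reads stood in the tables as not uniquely aligned, against 0 in the 14 other libraries, so that day 17 and this difference in read handling cannot be told apart. The pair of libraries with both ligands was less alike than other ES pairs (chi-square per gene between replicates 10.74, and 2.862 to 3.404 in the other ES groups). Their difference ran with the base composition of genes (Spearman's rho of -0.403 across genes between GC content and the difference of replicate 1 from replicate 2, with genes not being independent), and 6 of the 8 receptor genes, at 55.7% GC or more, were among the genes richest in it. The day 16 GW3965 libraries had a chi-square of 42.18 per gene, the highest of the 9 groups. The tests below estimated the spread over all groups together.

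Levels of different genes were set side by side as RPKM, CPM per kilobase of annotated exon. In ES control cells Nr1h2 at 21.3 ± 0.303 RPKM and Rxrb at 19.6 ± 0.319 RPKM were the most abundant of the 8 (SD, n = 2), followed by Rarg and Rara, and Rarb lay lowest at 0.131 ± 0.00423 RPKM. Over the 18 libraries the group means of Rarb spanned 97.8-fold. Those of Rarg spanned 4.77-fold, of Rxra 4.56-fold, of Rxrg 4.26-fold, of Nr1h3 3.34-fold, of Rara 2.2-fold, of Nr1h2 2-fold and of Rxrb 1.8-fold. All 8 genes had counts in all 18 libraries, and 7 of them stayed within a much narrower range than Rarb.

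**Figure D1:**
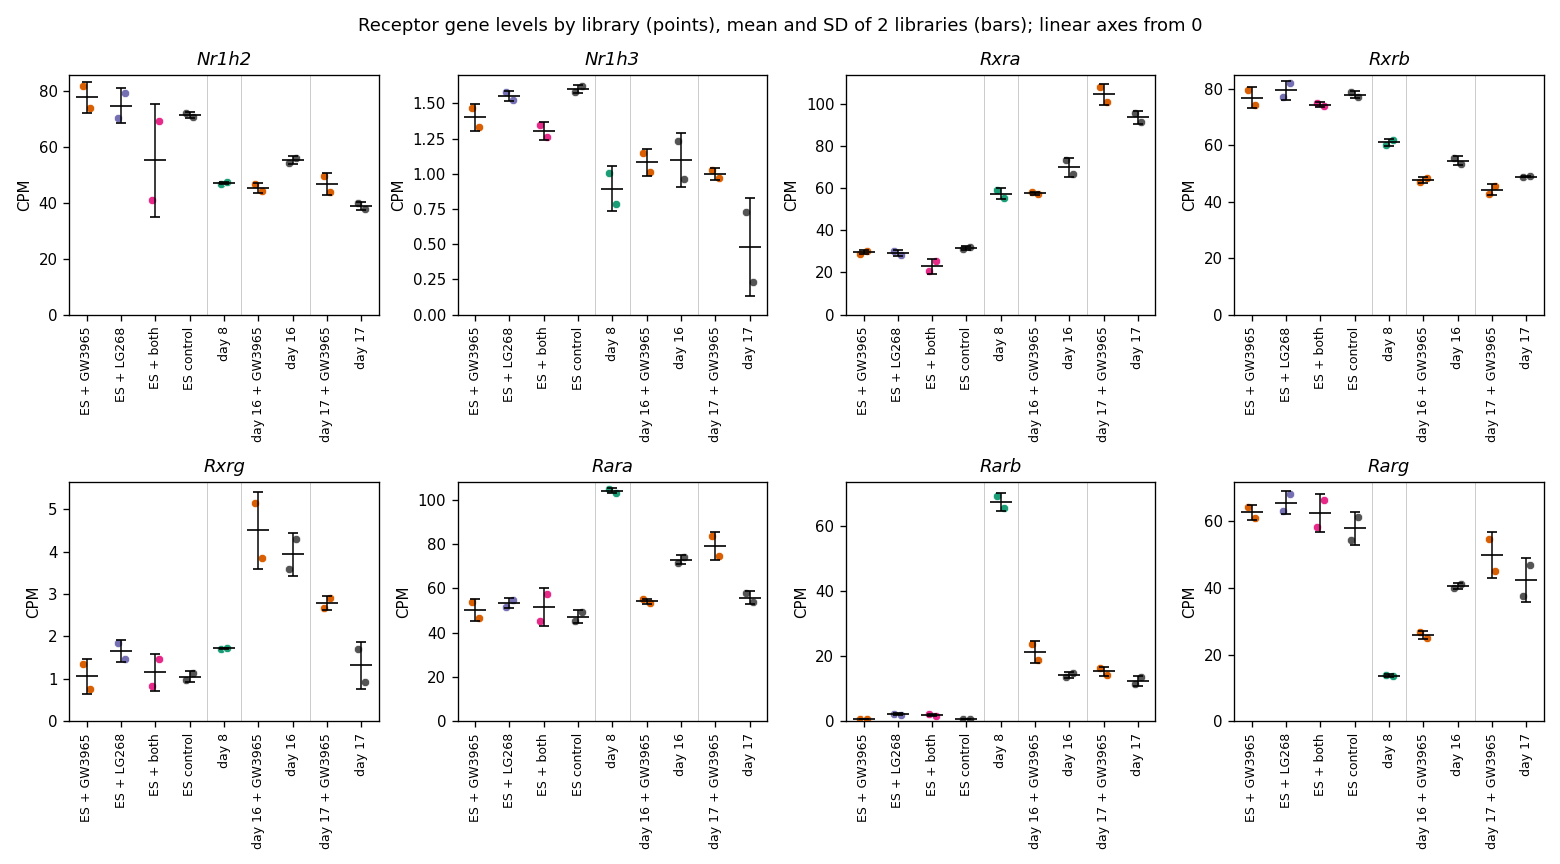
CPM (linear axes from 0) of the 8 receptor genes in the 18 libraries, as points, with the mean and SD of 2 libraries per group; orange marks GW3965, purple LG268, pink both ligands, green day 8 and grey the other cultures without ligand. Rarb lies below 2.4 CPM in every ES library and above 65 CPM in both day 8 libraries, and the pair given both ligands is far apart for Nr1h2.

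The LXR genes differed in level by more than an order of magnitude. Nr1h2, which encodes the broadly expressed LXR beta (chromosome 7, 44549616 to 44553951 of GRCm38, minus strand), made up 96.7 to 98.4% of the summed LXR RPKM in all 9 groups. Nr1h3, which encodes LXR alpha, the form known from liver and macrophages (chromosome 2, 91184061 to 91202834, minus strand), had between 4 and 60 counts per library. Its values therefore rest on few reads, and the 2 day 17 libraries held 17 and 4 of them.

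Both LXR genes were lower at day 8 than in ES control cells. Nr1h2 had 46.9 and 47.3 CPM at day 8, against 72.1 and 70.7 CPM in ES control cells, without overlap, a fall of 0.60 ± 0.14 on the log2 scale (SE; edgeR quasi-likelihood test, adjusted p = 0.000563). Nr1h3 had 1.01 and 0.784 CPM at day 8, against 1.58 and 1.62 CPM in ES control cells (log2 -0.84 ± 0.35, edgeR adjusted p = 0.0358), and its call ended without either control library (adjusted p = 0.0842 and 0.103), without day 8 replicate 2 (0.186), with no filter (0.0645) and with the DESeq2 Wald test (0.068). At day 16 neither gene passed against day 8, with Nr1h2 at 54.4 and 56.2 CPM (adjusted p = 0.153) and Nr1h3 at 1.23 and 0.964 CPM (adjusted p = 0.511). Nr1h2, above both day 8 libraries at day 16, passed with no filter (0.0407) and when only the groups compared were fitted (0.000534). At day 17 Nr1h2 had 39.8 and 38 CPM, below both day 16 libraries (log2 -0.51 ± 0.14, edgeR adjusted p = 0.00491). Nr1h3 had 0.726 and 0.233 CPM at day 17, also below both day 16 libraries (log2 -1.09 ± 0.42, edgeR adjusted p = 0.0312), and its call ended without day 17 replicate 2 (0.287) or day 16 replicate 1 (0.139), with no filter (0.0517), by the DESeq2 Wald test (0.0536) and when only these 4 libraries were fitted (0.0825).

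In order of mean CPM, Nr1h2 stood highest in the ES groups given GW3965, LG268 or no ligand (77.8, 74.8 and 71.4 CPM), whose libraries overlapped between neighbours. Day 16, both ligands in ES cells, day 8, day 17 with GW3965 and day 16 with GW3965 followed between 55.3 and 45.4 CPM, each overlapping the group above it except day 16, and day 17 was lowest at 38.9 CPM without overlap. For Nr1h3 the 4 ES groups (1.6 to 1.3 CPM) lay above all differentiated groups, and day 17 (0.479 CPM) lay below all others.

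The makeup of the RXR genes shifted along the untreated cultures, and their sum, with all annotated exons as length, rose from 25.8 to 30 RPKM. Rxra, which encodes RXR alpha (chromosome 2, 27676440 to 27762957, plus strand), made up 22.3 ± 0.673% of summed RXR RPKM in ES control cells, 39.4 ± 1.57% at day 8, 45.3 ± 1.35% at day 16 and 57.1 ± 0.454% at day 17 (SD, n = 2 each). Rxrb, which encodes the widely expressed RXR beta (chromosome 17, 34031812 to 34038399, plus strand), made up 75.9 ± 0.894%, 57.8 ± 1.52%, 48.6 ± 0.359% and 41 ± 1.2% in the same order of cultures. Rxrg, which encodes RXR gamma, a form of more restricted expression (chromosome 1, 167598384 to 167639623, plus strand), never exceeded 9.07% in a library. The class summed to 25.8 ± 0.116 RPKM in ES control cells, 26.6 ± 0.135 at day 8, 28.2 ± 0.98 at day 16 and 30 ± 0.731 at day 17. These shares depend on the exon lengths taken: with the longest transcript in place of all exons, Rxra and Rxrb made up 49.8% and 48.6% at day 17, and Rxrb stayed above Rxra at day 16 (56.3% and 38.6%). The sums depend on these lengths too and are given for all exons only. Shares and sums are given as a description, and no test was run on them.

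**Figure D2:**
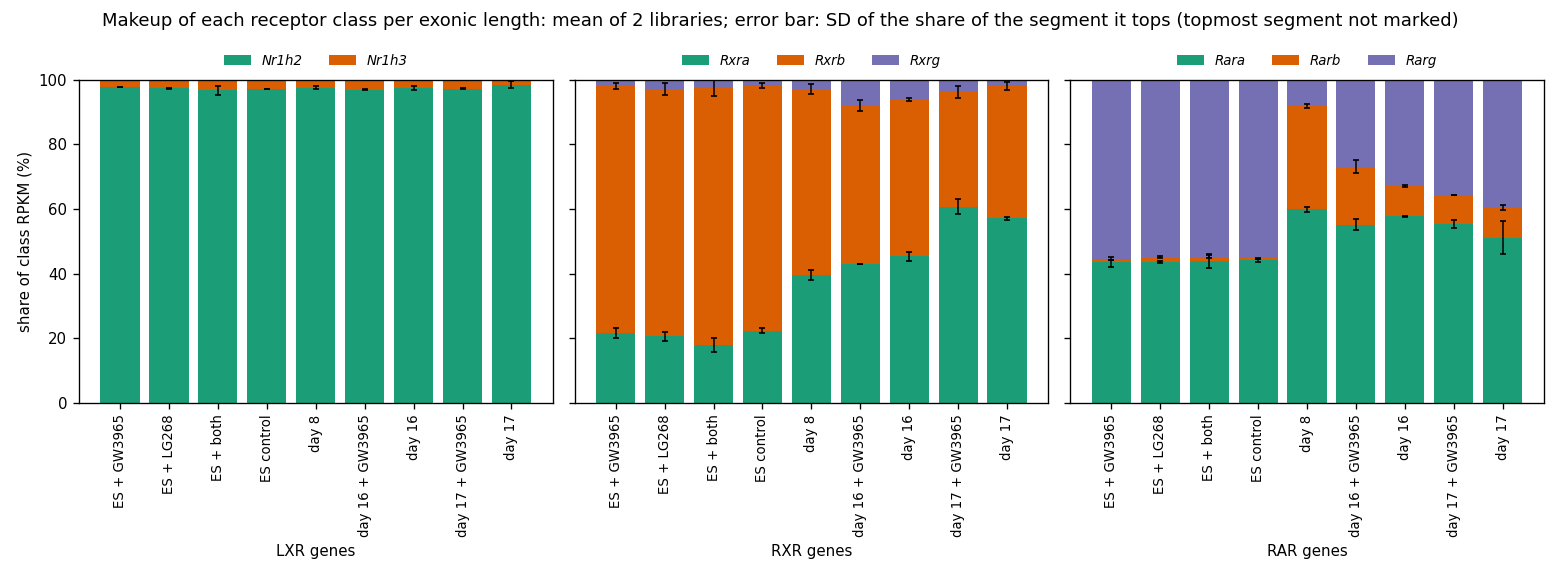
Share of each gene in the summed RPKM of its receptor class (percent, mean of 2 libraries) in the 9 groups, with the SD of the segment that an error bar tops. Nr1h2 fills nearly all of the LXR class, Rxra takes 22.3% of the RXR class in ES control cells and 57.1% at day 17, and Rarb is visible in the RAR class from day 8 on.

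Rxra rose at every step and Rxrb fell at every step of the untreated series. Rxra had 59 and 55.4 CPM at day 8, against 30.9 and 32.1 CPM in ES control cells (log2 0.86 ± 0.08, edgeR adjusted p = 9.13e-09). It had 73 and 66.7 CPM at day 16, above both day 8 libraries (log2 0.29 ± 0.08, adjusted p = 0.00373), a call that ended without day 16 replicate 1 (0.0905) or day 8 replicate 2 (0.0782). It had 95.6 and 91.4 CPM at day 17, above both day 16 libraries (log2 0.42 ± 0.08, adjusted p = 0.00011). The groups thus did not overlap at any of these steps. Rxrb had 60.1 and 61.9 CPM at day 8, against 78.8 and 77 CPM in ES control cells (log2 -0.35 ± 0.06, edgeR adjusted p = 3.5e-05). Its later falls were small and lost in many settings. At day 16 it had 55.6 and 53.5 CPM (log2 -0.16 ± 0.06 against day 8, adjusted p = 0.0309), a call lost with DESeq2 size factors (0.0986), the DESeq2 Wald test (0.14), a fit of those 4 libraries alone (0.113), and without day 16 replicate 2 (0.121) or day 8 replicate 2 (0.0949). At day 17 it had 48.7 and 49 CPM (log2 -0.16 ± 0.07 against day 16, adjusted p = 0.0449), a call that held in 2 of 11 alternatives and ended without any 1 of the 4 libraries (0.0842 to 0.247) and with the replicate number as a block (0.0537).

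Rxrg peaked at day 16. It had 44 and 53 counts at day 8, against 22 and 29 counts in ES control cells, or 1.7 and 1.73 CPM at day 8, against 0.967 and 1.15 CPM in ES control cells (log2 0.69 ± 0.34, edgeR adjusted p = 0.0725, not passing, and 0.046 when only the groups compared were fitted). At day 16 it had 3.58 and 4.29 CPM, above both day 8 libraries and 2.3-fold higher (log2 1.20 ± 0.29, adjusted p = 0.00143). At day 17 it had 1.71 and 0.933 CPM, below both day 16 libraries (log2 -1.54 ± 0.32, adjusted p = 0.000316). In order of mean CPM over the 9 groups, Rxrg was highest in the 2 day 16 groups, which overlapped, followed by day 17 with GW3965 (2.79 CPM), and the other 6 groups followed from 1.72 to 1.06 CPM with overlap between all neighbours.

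Rxra was highest in the 2 day 17 groups (104.3 CPM with GW3965 and 93.5 CPM without), then at day 16 (69.9 CPM). Day 16 with GW3965 (57.6 CPM) and day 8 (57.2 CPM) overlapped, and the ES groups lay lowest, from 31.5 CPM in control cells to 22.9 CPM with both ligands. Rxrb ran the other way, with the 4 ES groups highest (79.4 to 74.3 CPM, all neighbours overlapping), then day 8, day 16, day 17, day 16 with GW3965 and day 17 with GW3965 (44.2 CPM), none of which overlapped the group above it.

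The makeup of the RAR genes turned over between ES cells and day 8. Rara encodes RAR alpha, the broadly expressed form (chromosome 11, 98927818 to 98974942, plus strand). Rarb encodes RAR beta, whose gene responds to retinoic acid (chromosome 14, 16430839 to 16819156, minus strand). Rarg encodes RAR gamma, the form known from early embryos and skin (chromosome 15, 102234938 to 102257517, minus strand). In ES control cells Rarg made up 55.3 ± 0.514% and Rara 44.2 ± 0.457% of summed RAR RPKM, and Rarb made up 0.534 ± 0.0573%. At day 8 Rara made up 59.8 ± 0.672%, Rarb 32.1 ± 0.634% and Rarg 8.1 ± 0.0382%, and the class summed to 39.8 ± 0.86 RPKM, against 24.6 ± 1.84 RPKM in ES control cells. At day 16 the shares were 57.7 ± 0.134% for Rara, 9.36 ± 0.38% for Rarb and 32.9 ± 0.246% for Rarg. At day 17 they were 51.1 ± 5.03%, 9.38 ± 0.737% and 39.5 ± 4.29% in the same order of genes (SD, n = 2 each). The RAR shares also depend on the exon lengths taken. With the longest transcript, Rarb made up 37.9% at day 8 and Rara 47.5% at day 17. Rarg thus led in ES cells and Rara in the differentiated cultures.

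A repeat of the kind that RARs bind lies before a start site of Rarb. RARs paired with RXRs bind direct repeats of a half-site of 6 bases, and the repeat upstream of Rarb is the textbook example. The 250 bases before and 50 after each start site, from RefSeq (GRCm38.p6), were searched on both strands for 2 half-site cores, each GGTCA or GTTCA, in half-sites spaced by 1 to 5 bases. All 8 genes had such windows, 16 in all, and only Rarb held a match, for GTTCANNNNNNGTTCA. It is shown in capitals because it was the only match among the 8 genes for the motifs searched. The match in Cyp26a1, which encodes a retinoic acid degrading enzyme and is also a known RAR target, is shown beside it. Whether the repeat has a part in the change of Rarb was not tested.
Rarb, chr14:16575506-16575535, minus strand: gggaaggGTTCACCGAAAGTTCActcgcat
Cyp26a1, chr19:37697769-37697798, plus strand: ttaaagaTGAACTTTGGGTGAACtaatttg

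In Rarb the match reads along the gene and ends 37 bases before the start site. In Cyp26a1 it reads on the opposite strand and ends 17 bases before the start site. The same motif occurred in 25 of 32851 windows (0.0761%) and any of the 4 motifs spaced by 5 in 81 windows (0.247%). The motifs spaced by 1, 2, 3 and 4 occurred in 0.402, 0.399, 0.161 and 0.207% of windows and in none of the 8 genes. A match describes these letters and is not evidence of binding.

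Of the 8 genes Rarb moved furthest. It had 1789 and 1998 counts at day 8, against 16 and 17 counts in ES control cells, or 69.2 and 65.3 CPM at day 8, against 0.703 and 0.672 CPM in ES control cells. The groups lay far apart, with day 8 97.2-fold higher (log2 6.60 ± 0.19, edgeR adjusted p = 3.74e-17). At day 16 it had 13.5 and 15 CPM, below both day 8 libraries and 4.7-fold lower (log2 -2.23 ± 0.12, adjusted p = 1.1e-11). At day 17 it had 11.3 and 13.5 CPM, just below the lower of the day 16 libraries, and did not pass (log2 -0.21 ± 0.13, adjusted p = 0.195). Of its annotated exon length 38.37% overlaps exons of other genes on the opposite strand, mainly Top2b, a topoisomerase gene, and whether the counting used strand is not given in the sources used here, so reads there cannot be told apart. Top2b averaged 530 ± 18.1 CPM at day 8, against 173 ± 7.67 CPM in ES control cells (SD, n = 2 each), where the 2 libraries held 3812 and 4515 counts for it beside the 16 and 17 for Rarb. Of the other 7 genes none shared as much as 1% of its exonic 50-mers with another gene.

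Rara and Rarg moved in opposite directions around day 8. Rara had 104.7 and 103.2 CPM at day 8, against 45.1 and 49.5 CPM in ES control cells (log2 1.14 ± 0.09, edgeR adjusted p = 5.64e-10). It had 71.4 and 74.3 CPM at day 16, below both day 8 libraries (log2 -0.51 ± 0.09, adjusted p = 5.19e-05). It had 57.9 and 53.9 CPM at day 17, below both day 16 libraries (log2 -0.38 ± 0.09, adjusted p = 0.00151). Day 8 was thus the peak of Rara. Rarg had 14 and 13.5 CPM at day 8, against 54.5 and 61.4 CPM in ES control cells, 4.22-fold lower (log2 -2.08 ± 0.11, edgeR adjusted p = 9.7e-13). It had 39.9 and 41.2 CPM at day 16, above both day 8 libraries and 2.95-fold higher (log2 1.56 ± 0.11, adjusted p = 5.4e-10). It had 37.6 and 47 CPM at day 17, where the libraries straddled the day 16 values and did not pass (log2 0.05 ± 0.11, adjusted p = 0.687). Day 8 was thus its lowest point.

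**Figure D3:**
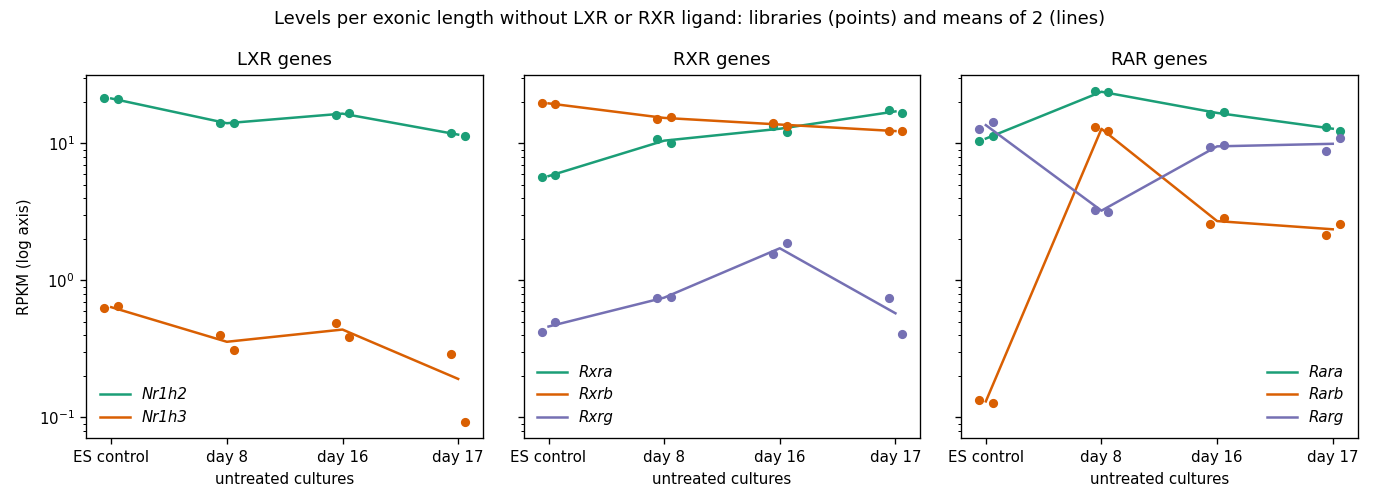
RPKM on a log axis of the LXR, RXR and RAR genes in ES control cells and in cultures at days 8, 16 and 17 without LXR or RXR ligand, with libraries as points and lines through the means of 2. Rxra starts below Rxrb and lies above it at day 17, Rarb and Rara peak at day 8, and Rarg is lowest there.

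In order of mean CPM, day 8 led for Rara and Rarb and was last for Rarg. For Rara, day 17 with GW3965 (79.1 CPM) and day 16 (72.9 CPM) followed without overlap, and the remaining 6 groups ran from 55.9 to 47.3 CPM, each neighbour overlapping from day 17 down. For Rarb, day 16 with GW3965 (21.3 CPM) followed, then day 17 with GW3965 and day 16, which overlapped, and day 17, and all ES groups lay at 2.24 CPM or below. For Rarg, the 4 ES groups (65.6 to 57.9 CPM), the 2 day 17 groups and day 16 overlapped from neighbour to neighbour, and day 16 with GW3965 (25.8 CPM) and day 8 (13.7 CPM) lay apart below them.

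Counted over the 8 genes, 3 rose and 4 fell at day 8 against ES control cells, where 78.7% of all genes tested passed. At day 16 against day 8, 3 rose and 3 fell beside 61.6% of all genes. At day 17 against day 16, 1 rose and 5 fell beside 56.2% of all genes. Most genes passed at these steps, so the counts say little about the receptors as a set, whose median log2 changes were 0.17, 0.26 and -0.30 beside 0.00, -0.04 and -0.02 over all genes. Marker genes of other cell types moved along the same steps. The 5 mesenchyme markers (Col1a1, Col1a2, Col3a1, Lum and Dcn, all detected) summed to 96.99 to 102.2 CPM in ES control cells, 1403 to 1666 CPM at day 8, 9603 to 11030 CPM at day 16 and 7879 to 8794 CPM at day 17. The 4 astrocyte markers (Gfap, Aqp4, Aldh1l1 and S100b) summed to 26.9 to 28.76 CPM with S100b at 0, then 4.377 to 5.144, 661.3 to 702.2 and 2336 to 2706 CPM at these days. The part of such cells in the receptor levels was not tested, and in bulk RNA a lower share of cells of a type and less RNA per cell cannot be told apart.

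In ES cells GW3965 left the receptor genes without a call. None of the 8 passed after 24 h of GW3965 against control, beside 0.32% of all genes tested. At an unadjusted p below 0.05 the count was also 0, and it was 0 in every alternative run, the DESeq2 Wald test and limma-voom included. Nr1h2, the main LXR transcript, had 81.8 and 73.8 CPM with GW3965, against 72.1 and 70.7 CPM in control cells, and its 95% interval ran from -0.15 to 0.41 on the log2 scale. The intervals of Rxra (-0.28 to 0.09) and Rxrb (-0.15 to 0.11) were narrow, and those of Nr1h3 (-0.89 to 0.52), Rxrg (-0.68 to 0.83) and Rarb (-0.60 to 0.77), which had few counts, were wide. The same libraries had all 8 of the listed LXR targets higher, with a median log2 change of 2.30, among them Abca1, a cholesterol efflux pump, at 336 ± 12.4 CPM with GW3965, against 8.15 ± 0.907 CPM in control cells (SD, n = 2 each).

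LG268 raised 1 receptor gene in ES cells, Rarb. It had 2.39 and 2.1 CPM with LG268, from 65 and 44 counts, against 0.703 and 0.672 CPM in control cells, without overlap (log2 1.71 ± 0.27, edgeR adjusted p = 0.00202). The share of all genes called was 0.851%. The call was kept in 11 of 12 alternatives and ended with limma-voom (0.0934). Against GW3965 in place of control, where 0.6% of all genes passed, Rarb was again the only receptor gene called (2.39 and 2.1 CPM with LG268, against 0.734 and 0.718 CPM with GW3965, log2 1.62 ± 0.26, adjusted p = 0.00227). That call ended without GW3965 replicate 1 (0.109), without LG268 replicate 1 (0.0902) and with limma-voom (0.0943). Even so Rarb was 1.52 ± 0.208% of summed RAR RPKM with LG268, against 0.534 ± 0.0573% in control cells, and its highest ES library lay 27.4-fold below the lower day 8 library. Rxrg had 1.83 and 1.48 CPM with LG268, against 0.967 and 1.15 CPM in control cells, and did not pass (log2 0.65 ± 0.35, adjusted p = 0.618). Rara and Rarg lay slightly higher in both LG268 libraries than in both control libraries and did not pass either (log2 0.17 ± 0.10 and 0.18 ± 0.10, adjusted p = 0.644 and 0.654).

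With both ligands Rarb was again higher and Rxra lower than in control cells. Rarb had 2.13 and 1.63 CPM with both ligands, against 0.703 and 0.672 CPM in control cells (log2 1.44 ± 0.30, edgeR adjusted p = 0.00376). Rxra had 20.4 and 25.3 CPM with both ligands, against 30.9 and 32.1 CPM in control cells (log2 -0.46 ± 0.09, edgeR adjusted p = 0.00314). The groups did not overlap for either gene, and 11.3% of all genes passed in this comparison, against which 2 of 8 is not a result about the receptors. Both calls ended without replicate 1 of the both-ligand group (0.067 for Rarb and 0.0695 for Rxra) and when just these 4 libraries were fitted (0.0779 and 0.101), and that of Rarb also with limma-voom (0.0597). Nr1h2 had 41 and 69.4 CPM with both ligands, of which only the first lay far from the 72.1 and 70.7 CPM of control cells, and did not pass (log2 -0.37 ± 0.14, adjusted p = 0.1). It passed without replicate 2 of the both-ligand group (1.83e-05) and with no filter (0.000691).

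Against either single ligand the both-ligand libraries gave calls that rested on few libraries. Against LG268, where 4.21% of all genes passed, Rxra alone was lower, at 20.4 and 25.3 CPM with both ligands, against 30.2 and 28.1 CPM with LG268 (log2 -0.35 ± 0.09, edgeR adjusted p = 0.037), and it passed in 5 of 12 alternatives, not without either LG268 library (0.258 and 0.115) or without both-ligand replicate 1 (0.501). Nr1h2 passed there with no filter (6.56e-05), by the DESeq2 Wald test (0.0453) and without both-ligand replicate 2 (1.17e-05). Rarb did not pass between these groups (log2 -0.27 ± 0.23, with a 95% interval of -0.76 to 0.22, adjusted p = 0.584). Against GW3965, where 10.7% of all genes passed, Rarb was 2.56-fold higher (adjusted p = 0.00493), Nr1h2 1.41-fold lower (0.0274) and Rxra 1.29-fold lower (0.0156). All 3 ended without GW3965 replicate 1 (0.0725, 0.212 and 0.0737) and without both-ligand replicate 1 (0.104, 0.398 and 0.274), and those of Nr1h2 and Rxra also without GW3965 replicate 2 (0.0575 and 0.086). The departure from additivity of the 2 ligands on the log scale passed for 0 of 8 genes, beside 0.134% of all genes. Nr1h2 was the only member with an unadjusted p below 0.05 there (log2 -0.56 ± 0.20, adjusted p = 0.217), it passed with no filter (0.000558), and without both-ligand replicate 2 Nr1h2 and Rxra passed (5.13e-05 and 0.0457). Without replicate 1 neither did. By limma-voom and the DESeq2 Wald test the count was 0.

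**Figure D4:**
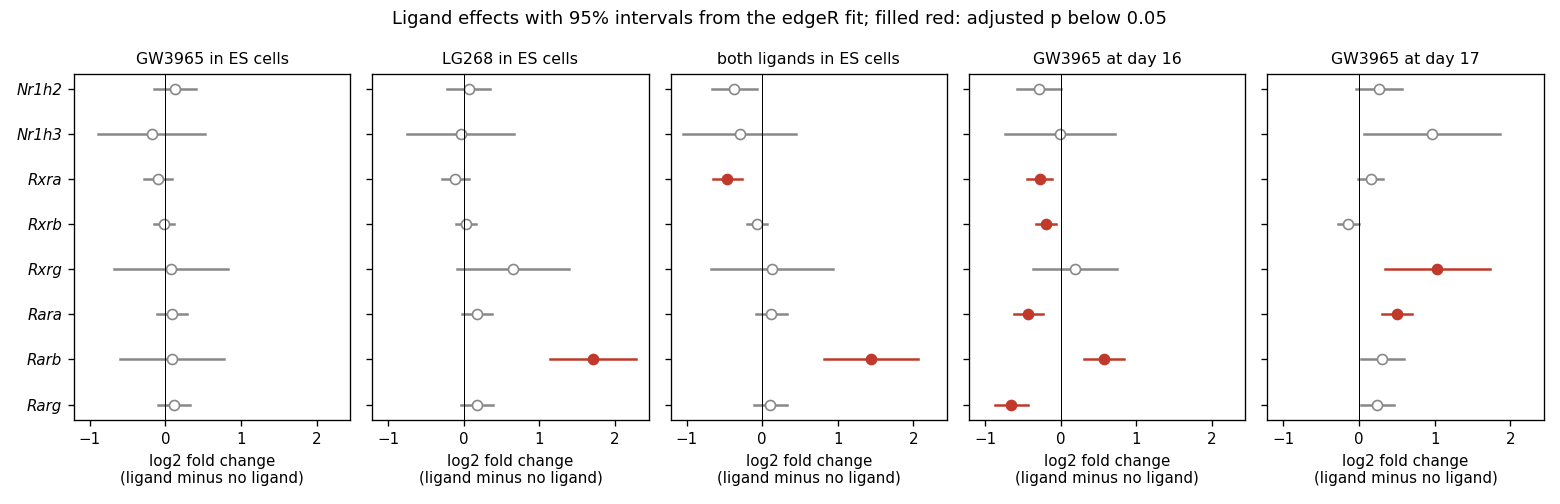
Log2 fold changes (ligand minus no ligand) of the 8 receptor genes with 95% intervals from the edgeR fit, for GW3965, LG268 and both in ES cells and GW3965 at days 16 and 17; filled red points had an adjusted p below 0.05. Rarb stands apart with LG268 and with both ligands, and at day 16 Rxra, Rxrb, Rara and Rarg lie below 0 where at day 17 Rara lies above it.

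At day 16 GW3965 cultures had lower levels of 4 receptor genes and a higher level of Rarb. Rarg had 26.7 and 25 CPM with GW3965, against 39.9 and 41.2 CPM without, 1.57-fold lower (log2 -0.65 ± 0.11, edgeR adjusted p = 9.29e-05). Rara had 55.1 and 53.3 CPM with GW3965, against 71.4 and 74.3 CPM without (log2 -0.43 ± 0.09, adjusted p = 0.00113). Rarb had 23.7 and 18.9 CPM with GW3965, against 13.5 and 15 CPM without, 1.49-fold higher (log2 0.58 ± 0.13, adjusted p = 0.00146). The groups did not overlap for these 3 genes, and the calls held in all 12 alternatives. As shares of summed RAR RPKM, Rarb was 17.9 ± 1.92% with GW3965, against 9.36 ± 0.38% without, and Rarg 26.9 ± 0.211% with GW3965, against 32.9 ± 0.246% without. Top2b, which overlaps Rarb, averaged 310 ± 9.14 CPM with GW3965 and 312 ± 7.45 CPM without.

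Rxra had 58.1 and 57.1 CPM with GW3965 at day 16, against 73 and 66.7 CPM without (log2 -0.28 ± 0.08, edgeR adjusted p = 0.0102), a call that ended without day 16 replicate 1 (0.134) or GW3965 replicate 2 (0.0611). Rxrb had 46.9 and 48.4 CPM with GW3965, against 55.6 and 53.5 CPM without (log2 -0.19 ± 0.06, adjusted p = 0.0241), a call that ended without any 1 of the 4 libraries (0.0609 to 0.167), with no filter (0.0623), by the DESeq2 Wald test (0.064) and when these 4 alone were fitted (0.0954). Nr1h2 had 46.6 and 44.2 CPM with GW3965, against 54.4 and 56.2 CPM without, and did not pass (adjusted p = 0.123). Its groups did not overlap, and it passed without a filter (0.00596) and when only these groups were fitted (0.0213). Of all genes tested 31.7% passed in this comparison, where 5 of 8 receptor genes did. Cell type markers moved with it: the 5 mesenchyme markers summed to 4455 to 5633 CPM with GW3965, against 9603 to 11030 CPM without, the 4 astrocyte markers to 205.3 to 331.7 CPM, against 661.3 to 702.2 CPM, and the 6 neuronal markers to 1903 to 2049 CPM, against 1287 to 1303 CPM. The 5 neural progenitor markers (Nes, Pax6, Sox1, Fabp7 and Hes5) summed to 518.7 to 548.8 CPM with GW3965, against 674.5 to 675.6 CPM without, the 4 endoderm markers (Sox17, Foxa2, Gata4 and Afp) to 256.4 to 272.7 CPM, against 175.5 to 185 CPM, and the 4 surface epithelium markers (Krt5, Krt14, Krt8 and Krt18) to 465.3 to 654.7 CPM, against 344 to 368.8 CPM. None of these markers was at 0. Their part in the receptor changes was not tested.

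At day 17 GW3965 cultures had more Rara and Rxrg. Rara had 83.6 and 74.7 CPM with GW3965, against 57.9 and 53.9 CPM without, 1.41-fold higher (log2 0.50 ± 0.09, edgeR adjusted p = 0.000336), and the call held in all 11 alternatives. Rxrg had 2.68 and 2.9 CPM with GW3965, from 60 and 69 counts, against 1.71 and 0.933 CPM without, from 40 and 16 counts (log2 1.04 ± 0.33, adjusted p = 0.0194), a call that ended without day 17 replicate 2 (0.181) or GW3965 replicate 2 (0.0822). The groups did not overlap for these genes. Both genes were lower in these untreated day 17 libraries than at day 16 without GW3965 (means of 72.9 and 3.94 CPM there). With GW3965 at day 17 the means were 79.1 CPM for Rara and 2.79 CPM for Rxrg. The other 6 did not pass, with adjusted p from 0.0824 to 0.171, and 2 of 8 stands beside 35.2% of all genes. Nr1h2 had 49.6 and 44 CPM with GW3965, against 39.8 and 38 CPM without (adjusted p = 0.171), and passed without a filter (0.0173) and when only these groups were fitted (0.0383). Nr1h3 had 1.03 and 0.967 CPM with GW3965, against 0.726 and 0.233 CPM without (adjusted p = 0.0889), and passed without day 17 replicate 1 (0.0174). Rarg had 54.8 and 45 CPM with GW3965, against 37.6 and 47 CPM without (adjusted p = 0.0824), and passed without day 17 replicate 2 (0.0171) or GW3965 replicate 2 (0.0224) and with no filter (0.0315). The astrocyte markers summed to 1401 to 1918 CPM with GW3965, against 2336 to 2706 CPM without, and the groups did not overlap. Neuronal markers summed to 1108 to 1201 CPM with GW3965, against 951.3 to 962.7 CPM without, neural progenitor markers to 486.3 to 603.7 CPM, against 367.1 to 406.3 CPM, and surface epithelium markers to 509.3 to 531.3 CPM, against 327.9 to 415.1 CPM, all higher without overlap. Mesenchyme markers overlapped, at 7708 to 8576 CPM with GW3965, against 7879 to 8794 CPM without. The part of such cells was not tested.

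The responses to GW3965 were compared between stages directly, as differences of log2 changes within the same fit. Between day 16 and ES cells, Rarg and Rara differed, both lower in the day 16 response (by -0.77 ± 0.15, adjusted p = 0.00145, and by -0.52 ± 0.13, adjusted p = 0.0104), beside 14.8% of all genes. The call for Rara ended without replicate 1 of ES control (0.0615) or of ES GW3965 (0.0913), and Nr1h2 passed without a filter (0.00717) and when only the groups compared were fitted (0.0123). Between day 17 and ES cells Rara alone differed, higher in the day 17 response (0.41 ± 0.13, adjusted p = 0.0382), beside 18.2% of all genes, and this call ended without any of 5 libraries (0.0528 to 0.165). Nr1h3 passed there without day 17 replicate 1 (0.035). Between day 17 and day 16, 4 of 8 genes differed beside 37% of all genes, all with the higher response at day 17. These were Rara (0.93 ± 0.13, adjusted p = 1.5e-05), Rarg (0.89 ± 0.15, 0.000102), Rxra (0.43 ± 0.11, 0.00436) and Nr1h2 (0.55 ± 0.20, 0.0366), and that of Nr1h2 ended without any of 6 of the 8 libraries (0.0641 to 0.127). Without day 17 replicate 1, Nr1h3 (0.0293) and Rxrg (0.0477) passed as well. Rarb, with its rise at day 16, did not differ beyond the threshold between any of these responses (adjusted p = 0.41, 0.736 and 0.278). File names give the day 16 and day 17 treatments different lengths, and the day 17 files differ in read handling, so stage, length and handling cannot be told apart. The responses at days 16 and 17 each have controls of their own. Every response is shared between comparisons: ES in the first 2, day 16 in the first and last, and day 17 in the last 2. These comparisons are therefore not independent of each other.

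Genes that supply, carry and break down retinoic acid were listed beside the receptors, 14 in all. In ES cells 1 of 14 was higher with LG268, beside 0.851% of all genes, and none passed with GW3965, beside 0.32%. The 1 gene was Crabp2, a retinoic acid carrier, at 16.3 CPM with LG268, against 9.66 CPM in control cells (edgeR adjusted p = 0.0225). At day 8, where 78.7% of all genes passed, 11 were higher and 1 lower than in ES control cells (median log2 2.15, beside 0.00 over all genes), among them Aldh1a2, which makes retinoic acid, and Stra6, a retinol importer, 24.1-fold and 64.7-fold higher (adjusted p = 1.89e-15 and 5.56e-14). At day 16, where 61.6% of all genes passed, 3 were higher and 8 lower than at day 8, with the synthesis enzymes Aldh1a1 and Aldh1a3 15.1-fold and 11.8-fold higher (adjusted p = 5.61e-14 and 7.69e-10). With GW3965 at day 16, where 31.7% of all genes passed, 0 were higher and 9 lower (median log2 -0.65, beside -0.03 over all genes), with Crabp2 at 11.1 CPM with GW3965, against 45 CPM without (adjusted p = 2.01e-08). With GW3965 at day 17, 4 were higher and 3 lower, beside 35.2% of all genes. Of 10 listed RAR targets, 5 are also on that list. With LG268 in ES cells 3 of the 10 were higher and 0 lower, beside 0.851% of all genes. Among them was Meis2, a Hox cofactor, 2.32-fold higher (edgeR adjusted p = 0.000218). Cyp26a1, whose promoter match is shown above, had 12 ± 1.24 CPM with LG268, against 11.4 ± 1.42 CPM in control cells (SD, n = 2 each). At day 8 all 10 passed, 9 higher and 1 lower, beside the same 78.7%, and with GW3965 at day 16 1 was higher and 6 were lower (median log2 -1.33), while Rarb was higher there.

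Coregulators are the proteins through which these receptors repress or activate. Of 16 tested, 1 passed with LG268 in ES cells, beside 0.851% of all genes, and none with GW3965, beside 0.32%. It was Nrip1, a ligand-dependent corepressor, at 16 CPM with LG268, against 11 CPM in control cells (edgeR adjusted p = 0.00617). At day 8, 9 were higher and 6 lower than in ES control cells (median log2 0.18), beside the 78.7% of all genes that passed, with Nrip1 3.2-fold higher and the coactivator Ncoa3 2.04-fold lower (adjusted p = 8.45e-13 and 2.9e-12). With GW3965, where 31.7% of all genes passed at day 16 and 35.2% at day 17, 3 were lower and 0 higher at day 16, among them Carm1, a methyltransferase that acts as a coactivator (1.21-fold lower, adjusted p = 0.000763), and 6 were lower and 0 higher at day 17, among them Tbl1x of the corepressor complex (1.49-fold lower, 3.39e-06). Of 11 other nuclear receptors known to pair with an RXR, 10 could be tested and Nr1h4 could not. None of the 10 passed in any comparison among ES groups, where 0.134 to 11.3% of all genes did. At day 8, 6 were higher and 2 lower than in ES control cells, a share close to the 78.7% of all genes. At day 16, 8 were higher and 1 lower than at day 8, beside 61.6% of all genes, and Thrb, a thyroid hormone receptor, rose 6.02-fold (adjusted p = 6.55e-07). With GW3965 at day 17 the orphan receptor genes Nr4a1 and Nr4a2, known as immediate early genes, were 8.45-fold and 3.16-fold lower (adjusted p = 4.45e-13 and 4.02e-07), at 19.7 and 5.16 CPM with GW3965, against 166.7 and 16.4 CPM without. Those day 17 cultures stood apart from day 16, where the genes had 19.7 and 5.06 CPM without GW3965, and were 8.47-fold and 3.23-fold higher than day 16 (adjusted p = 2.57e-14 and 4.03e-08), so that day 17 with GW3965 lay near the day 16 level.

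The genes whose profile over the 18 libraries was most like each receptor were found by Pearson correlation of log2 CPM among 15060 genes with a mean of at least 1 CPM. The libraries fall into groups of 2 and most genes changed with differentiation, so such values describe a shared profile and nothing further. For Rarb they were Gdpd5, Pax6 and 2700069I18Rik (r = 0.982, 0.981 and 0.981), for Rxra Chpf2, Sgsh and Cenpb (0.989, 0.987 and 0.987), and for Rxrb Eif5b, Ran and Isy1 (0.993, 0.992 and 0.99). For Rarg they were Tapbp, Zfp185 and B230120H23Rik (0.981, 0.98 and 0.977), for Rara Ppp1r18 and Hsd11b2 (0.931 and 0.927), and for Nr1h2 Bckdha and Kif26a (0.956 and 0.954). The low-count genes gave Mettl7a3, Cox4i2 and D630032N06Rik for Nr1h3 (0.947, 0.915 and 0.903) and Myh7, Pld3 and Efcab1 for Rxrg (0.933, 0.914 and 0.913).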

How the data were processed

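The authors deposited whole-number counts of reads per gene symbol, 1 table for each library. Per the submitters' processing notes, TopHat2 2.0.7, Cufflinks 2.0.2, HTSeq 0.6.0, Cuffdiff 2.0.2 and the build mm10 were used; their order, the annotation and whether strand was used are not given in the sources used here. HTSeq's summary rows were kept out of library sizes and tests: reads with no gene made up 42.14 to 65.92% of each table and ambiguous ones 0.101 to 0.261%.

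With R 4.3.3 and edgeR 4.0.16, genes were kept by filterByExpr, and TMM factors ran from 0.9124 to 1.108. A single quasi-likelihood fit with 9 group means gave 15 two-sided comparisons, adjusted by Benjamini-Hochberg over 17166 genes and called below 0.05 (9 residual and 10.41 prior degrees of freedom). CPM used TMM-scaled totals and RPKM the union of GENCODE M21 exons (GRCm38). The precision is limited by 2 libraries a group. Alternatives were limma-voom (limma 3.58.1), the size factors of DESeq2 1.42.0 and its Wald test, the replicate number as a block, fits of only the groups compared or without the day 17 libraries, no low-count filter or one of 1 CPM in 4 libraries, and leaving out each library. Where 1 library remained, it was assumed to vary like the other groups. Same-numbered libraries of different groups did not deviate together (36 pairs, correlations -0.0934 to 0.0771), so they were not paired. The code was tested on simulated data.

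The 8 genes, the lists and the markers were chosen with earlier results of these data known. All 8 were reported in every comparison. From the lists, genes were named among the up to 3 called with the largest log2 change in a comparison, and Cyp26a1 and Top2b were added after their values were seen. A few genes under these rules are not reported here.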

Additional observations from a re-analysis of the deposited data

Results flagged for a closer look

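The response to GW3965 differed between ES cells, day 16 and day 17 for 4 receptor genes, by a test of the difference itself in the edgeR fit. Of all genes 14.8% passed for day 16 minus ES cells and 18.2% for day 17 minus ES cells. For day 17 minus day 16, 37% passed. The calls of Rara against ES cells and of Nr1h2 were lost in some alternatives. Stage, treatment length and read handling cannot be told apart in these differences. For Rara the day 16 response was lower than that of ES cells by a log2 difference of -0.521, the day 17 response was higher than that of ES cells by 0.407, and the day 17 response was higher than that of day 16 by 0.928. The single responses of Rara were -0.43 at day 16, 0.50 at day 17 and 0.09 in ES cells on the log2 scale. For Rarg the day 16 response lay -0.766 from that of ES cells, and the day 17 response lay 0.894 above that of day 16, with single responses of -0.65, 0.24 and 0.11 at day 16, at day 17 and in ES cells. For Rxra the day 17 response lay 0.433 above that of day 16, and for Nr1h2 it lay 0.552 above. Neither gene passed at day 17 on its own, and Nr1h2 did not at day 16 either, though it passed with no filter (adjusted p = 0.0173 at day 17 and 0.00596 at day 16) and in a fit of only the groups compared (0.0383 and 0.0213).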

How the results depend on the processing

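No receptor gene that was called changed direction in any alternative, and 22 of the 41 calls among 120 gene by comparison values held in every one. In ES cells the number of genes called depended on the setting. With limma-voom it was 0 for LG268 against control, 0 against GW3965, 1 for both ligands against control and 0 against LG268. In a fit of the groups compared it was 0 for both ligands against control, LG268 and GW3965. For both ligands against LG268 it was 0 with DESeq2 size factors, 0 without the day 17 libraries, 2 by the DESeq2 Wald test and 2 when no filter was applied. With no filter it was 1 for the ligand interaction and 4 for GW3965 at day 17. Leaving out 1 library gave 0 to 3 genes for both ligands against control and against GW3965, 0 to 2 against LG268 and for the interaction, 0 to 1 for LG268 against GW3965, 3 to 4 for GW3965 at day 16, 1 to 2 for the response at day 16 minus ES cells and 0 to 1 at day 17 minus ES cells. With a replicate block, 5 genes were called at day 17 against day 16, Rxrb being lost, and no other call changed. The cause was not tested in any of these.

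The share of all genes called moved too. Over the alternatives other than leaving out 1 library it ran from 0.297 to 2.46% for GW3965 in ES cells, 0.786 to 5.6% for LG268, 2.87 to 14.8% for both ligands, 0.524 to 5.92% for LG268 against GW3965, 0.377 to 8.88% for both against LG268, 0.749 to 16.2% for both against GW3965 and 0.0328 to 2.95% for the interaction, beside 0.32, 0.851, 11.3, 0.6, 4.21, 10.7 and 0.134%. It stayed within 1.5 times elsewhere. With 1 library left out it ran, in the same order of comparisons, from 0.161 to 0.251%, 0.24 to 0.402%, 4.12 to 16.2%, 0.166 to 0.2%, 0.588 to 13.6%, 1.86 to 17.6% and, for the interaction, 0.0114 to 8.34%. It then also moved by over 1.5 times for 2 others, with 20.6 to 28% for GW3965 at day 16 and 8.98 to 15.2% for the response at day 16 minus ES cells. Depth limits Nr1h3, Rxrg and, in ES cells, Rarb, whose libraries held 4 to 170 counts.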
